A study of Mus musculus with 30 samples.

Results

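The comparison covered the hippocampus of Nf1 heterozygous mice at P18 and P20 (P, days after birth) against P15. Its members were chosen by label alone: all 4 heterozygous pools of P18 and P20 against all 4 heterozygous pools of P15, 8 of the 30 pools in the series. Male pups of a cross between C57BL/6 and Nf1 heterozygous mice were genotyped from liver, and hippocampi of 2 pups of 1 genotype were pooled for each array. The heterozygotes, written NF+/- in the labels, carry 1 mutant Nf1 allele in every cell, and the labels give no treatment. The P15 group held the pools titled 1c, 1d, 2c and 2d. Each of the P18 and P20 groups held a pool titled 1a and another titled 1b. Title letter and age therefore cannot be told apart in heterozygotes. Wild-type pools of the same cross (4 at P15, 2 at P18 and 2 at P20) were the reference for the difference between genotypes. Neither the meaning of the number and letter in the titles nor the litters or processing days are given, and p-values therefore measure only the spread between pools.

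Neurofibromin, the Nf1 product, speeds the hydrolysis of GTP by Ras and so limits signalling through the MAP kinase cascade. Between the second and the fourth week after birth the mouse hippocampus passes from axon and dendrite growth to synapse maturation, while oligodendrocytes wrap axons in myelin and astrocytes take on their adult role in clearing glutamate, potassium and water. In whole hippocampus, fewer cells of a type and less RNA per cell cannot be told apart.

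Total RNA was hybridised to Affymetrix MG-U74Av2 arrays, which use 1 colour, and values are intensities on the authors' common scale, 1 per probe set and array. Below, the 4 P15 values of a gene stand in the order 1c, 1d, 2c, 2d, and its 4 later values in the order P18 1a, P18 1b, P20 1a, P20 1b. Array medians lay at 52.9 to 56.5 at P15 and at 51.4 to 56.9 at P18 and P20 (exact two-sided permutation test, p = 0.486, where 4 against 4 pools cannot go below 0.0286). Nf1 was near the floor in every pool, with 15.04, 11.1, 7.88 and 3.60 at P15 and 5.09, 10.1, 2.92 and 2.19 later in heterozygotes, and with 4.10 to 11.99 and 4.80 to 15.9 in wild type. At this brightness its probe set does not check the genotype labels. Neuronal and glial markers were bright (Snap25, Mbp, Aqp4, Csf1r), as in brain tissue, and the dentate granule cell marker Prox1 lay between 34.2 and 62.0.

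The P18 pool 1b stood apart from the others. The array carries control probe sets at both ends of the Gapdh and Actb transcripts, and the ratio of the 3' to the 5' set rises as RNA is shortened. That pool had the highest Gapdh ratio, 1.40 against 0.793 to 1.12 in the other 29 arrays, and the highest Actb ratio, 2.20 against 1.07 to 1.48. Its median correlation with the other 7 heterozygous pools was 0.937, against 0.951 to 0.961 for those pools. The Gapdh ratio also moved with the comparison itself: it was 0.859 to 0.948 at P15 and 0.966 to 1.40 at P18 and P20, with no overlap (exact two-sided permutation test, p = 0.0286, the smallest possible). Wild-type pools went the other way, from 0.836 to 0.921 at P15 to 0.793 to 0.855 later (p = 0.143 by the same exact test). Results are therefore given with and without P18 1b, and those that hold with the Gapdh ratio as a covariate are named. With that pool left out, P18 1a alone stood for P18 and weighed as much as both P20 pools together. Such a fit thus also changes the weight of the remaining later pools.

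**Figure D1:**
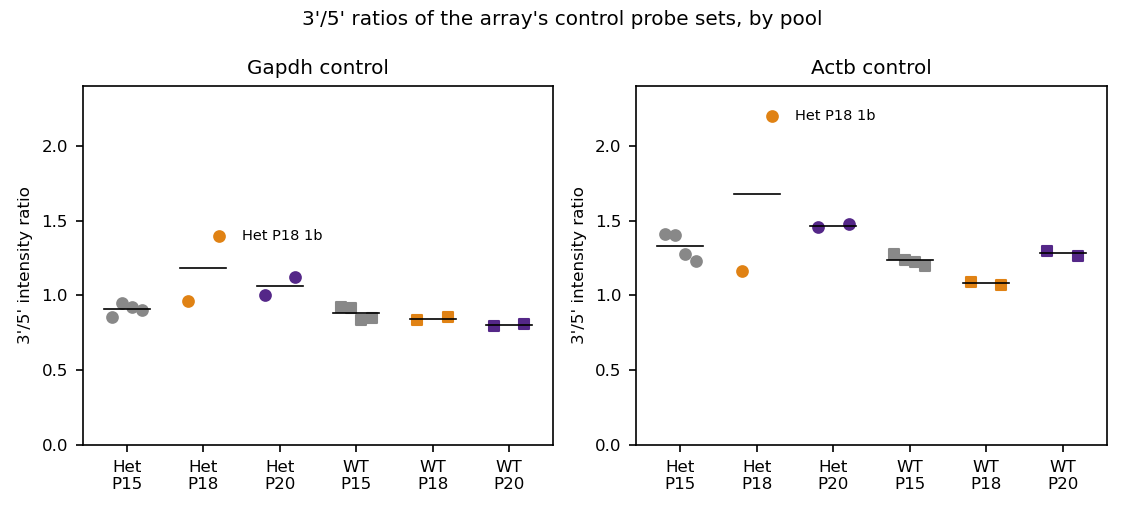
Ratio of 3' to 5' intensity of the Gapdh (left) and Actb (right) control probe sets on each array, for heterozygous (circles) and wild-type (squares) pools at P15, P18 and P20; points are pools, grey for P15, orange for P18 and violet for P20, and lines are group means. The P18 pool 1b lies highest in both panels, and all later heterozygous pools lie above all P15 heterozygous pools for Gapdh.

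Across 12422 probe sets, 1234 (9.93%) were called different between the ages in heterozygotes (limma, Benjamini-Hochberg adjusted p below 0.05), 610 (4.91%) higher and 624 (5.02%) lower at P18 and P20. With all pools, 130 called probe sets fell by more than 2-fold and 47 rose by more than 2-fold. These counts are not given without P18 1b. Some of the changes were then under 2-fold, both falls (log2 change of Ap2a2 -0.69, of Tomm40 -0.79) and rises (Sbno1 0.96, Klf7 0.91). All 1234 had the P18 mean and the P20 mean on the same side of the P15 mean, which selection on their average makes likely. Without P18 1b, 449 probe sets (3.61%, with 1.72% higher and 1.89% lower) were called, of which 390 were among the 1234. Every one of the 1234 kept its sign, which selection on the same pools makes likely as well. Leaving out P15 1d or P20 1a also lowered the count, to 611 and 622, and leaving out P18 1a raised it to 2243. With the P15 pools of number 1 alone, 838 (6.75%; 3.76% higher and 2.99% lower) were called. With the Gapdh ratio as a covariate 150 (1.21%; 0.459% higher and 0.749% lower) were called, and 99 probe sets (44 higher, 55 lower) were called with all pools, without P18 1b and with the covariate. The median log2 change over all probe sets was -0.04. The 30 genes described first were taken by size of change. They were called genes whose higher group was not dim and whose later pools did not overlap the P15 pools. Being called without overlap was a property of 792 probe sets (6.38%), and for these 30 genes it was a condition of the choice. The calls rest on a spread estimated from all 30 arrays. When only the heterozygous pools of the comparison were fitted, 1 of the 30 genes kept its call. With the title's number and letter as a replicate block, 3 of the 30 genes and 18 of the 1234 probe sets did.

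**Figure D2:**
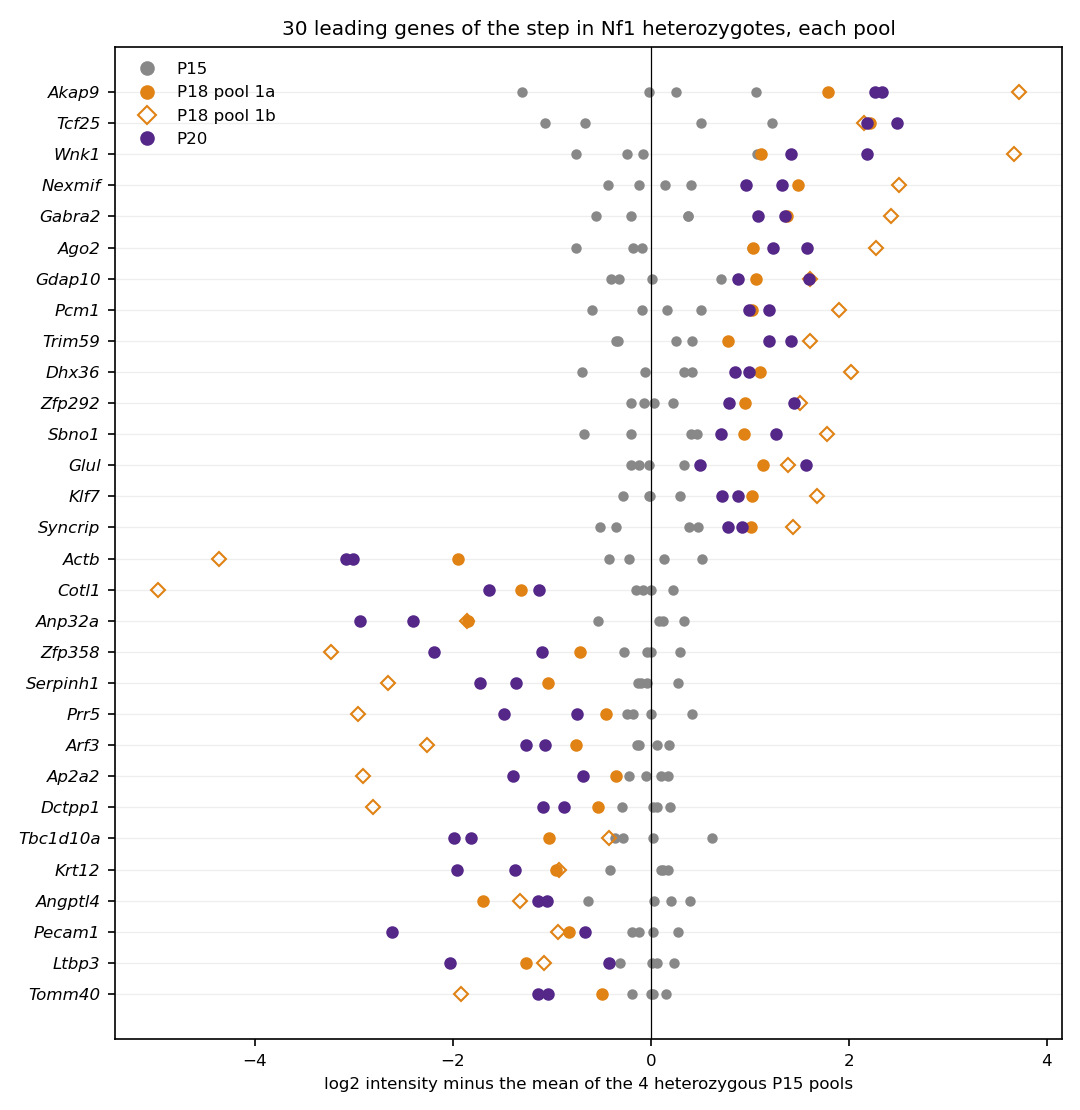
Log2 intensity per heterozygous pool of the 30 leading genes, 15 that rose (top) and 15 that fell (bottom), as the distance from the mean of the 4 P15 pools (grey). Orange circles are P18 pool 1a, open diamonds P18 pool 1b and violet circles the P20 pools. For every rising gene except Glul and Tcf25 the open diamond lies farthest out. Among the falling genes it does so for Actb, Cotl1, Zfp358, Serpinh1, Prr5, Arf3, Ap2a2, Dctpp1 and Tomm40.

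Glul (probe set 94852_at), glutamine synthetase, by which astrocytes convert glutamate to glutamine, rose 2.22-fold. Its intensities were 387, 367, 533 and 415 at P15 and 926, 1104, 1251 and 595 at P18 and P20. The P20 pool 1b was the lowest of the later pools. The log2 change was 1.15 ± 0.17 (SE), with an adjusted p of 0.00034, and 1.09 without P18 1b (adjusted p = 0.0035); it was also called with the Gapdh covariate (adjusted p = 0.022). A second probe set assigned to Glul, 161826_r_at, differed by -0.28 and was not called. Gabra2, a subunit of synaptic GABA-A receptors, was the other rising gene called in all these fits. It went from 49.3, 25.8, 49.1 and 33.1 to 98.6, 203, 97.2 and 80.4, a log2 change of 1.56 ± 0.29 (adjusted p = 0.0020) and of 1.30 without P18 1b (adjusted p = 0.021). Its P15 pools were dim, and P18 1b was the highest of the later pools.

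3 of the rising genes encode RNA-binding proteins. Ago2, the endonuclease of RNA silencing, went from 92.2, 86.7, 199.9 and 58.4 to 201, 477, 294 and 232 (log2 change 1.53 ± 0.37, adjusted p = 0.011). Its P15 pool 2c lay just under the P18 pool 1a, and without P18 1b the change was 1.22 and not called (adjusted p = 0.089). Dhx36, a helicase that unwinds G-quadruplexes, had 195, 95.3, 206 and 149 at P15 and 332, 627, 307 and 279 later (log2 change 1.24 ± 0.28), and was not called without P18 1b (adjusted p = 0.055). Syncrip, an hnRNP-like protein of neuronal RNA granules, had 41.7, 44.6, 25.2 and 22.4 and then 64.5, 86.9, 54.8 and 60.4 (log2 change 1.04 ± 0.28), and was not called without that pool either (adjusted p = 0.10). In all 3 genes the highest value was that of P18 1b.

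Akap9 and Pcm1 encode large scaffold proteins, and Akap9 had the largest rise of the 15. Akap9, which anchors protein kinase A at the Golgi and the centrosome, was dim at P15 with 13.4, 11.1, 23.5 and 4.57 and had 38.9, 148, 54.1 and 56.8 later, a 5.77-fold rise (log2 change 2.53 ± 0.50, adjusted p = 0.0030; 2.05 without P18 1b, adjusted p = 0.030). Pcm1, the scaffold of centriolar satellites, had 82.8, 69.5, 105 and 49.1 and then 150.3, 275, 169 and 146 (log2 change 1.28 ± 0.29) and missed the call without P18 1b (adjusted p = 0.063). Wnk1, a kinase that controls cation-chloride cotransporters, went from 23.6, 14.7, 52.5 and 21.0 to 53.8, 316, 66.6 and 113. Its log2 change of 2.10 ± 0.45 was 1.46 without P18 1b (adjusted p = 0.051), and the P15 pool 2c and the P18 pool 1a nearly met.

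Genes of transcription factors and other proteins with nuclear roles included Klf7, Zfp292 and Nexmif. Klf7, a Krüppel-like factor known from axon growth, went from 144, 116, 116 and 96.1 to 238, 374, 214 and 192 (log2 change 1.07 ± 0.18, adjusted p = 0.0011; 0.91 without P18 1b, adjusted p = 0.011). Nexmif, a neuronal gene linked to intellectual disability, went from 32.04, 38.4, 45.8 and 25.6 to 97.3, 198, 87.0 and 67.5 (log2 change 1.57 ± 0.26; 1.32 without P18 1b, adjusted p = 0.0083). Zfp292, a zinc finger protein, had 74.5, 67.8, 91.2 and 79.5 and then 150.5, 222, 212 and 135 (log2 change 1.18 ± 0.21; 1.04 without P18 1b, adjusted p = 0.015). In these 3 genes P18 1b was the highest of the later pools. Tcf25 had even later values, 79.9, 76.7, 78.6 and 96.8, against widely spread ones of 24.5, 8.24, 40.4 and 10.9 at P15, and the call was lost without P18 1b (adjusted p = 0.077). Sbno1 had 74.0, 34.8, 76.9 and 48.4 and then 107, 191, 134 and 91.2 and was not called without P18 1b (adjusted p = 0.065). Trim59, a RING finger protein, and Gdap10 rose by 1.25 and 1.29 and were called without that pool as well (adjusted p = 0.016 and 0.037). Of the 15 rising genes 8 were called without P18 1b and 2 with the Gapdh covariate.

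Actb, cytoplasmic beta-actin, had the largest fall of the 15. The probe set with the smallest p, 95705_s_at, gave 817, 492, 426 and 626 at P15 and 149, 27.8, 71.2 and 67.7 later, 8.56-fold lower (log2 change -3.10 ± 0.32, adjusted p = 1.5e-05; -2.49 without P18 1b, adjusted p = 1.9e-06). A second probe set, 101578_f_at, gave 793, 534, 567 and 540.0 and then 259, 37.2, 84.2 and 58.3 (log2 change -2.86 ± 0.31; -2.16 without P18 1b). In both, P18 1a was the highest and P18 1b the lowest of the later pools. The manufacturer's suffixes of these sets mark them as able to bind more than 1 transcript. The control probe sets along the Actb transcript did not show a change of that size: the 3', middle and 5' sets differed by -0.08, -0.15 and -0.28 on the log2 scale (exact two-sided permutation tests, p = 0.686, 0.343 and 0.0571). Those 3 control sets had intensities of 3529 to 7937 over the 8 pools. The fall was measured by the other 2 sets and not by the control sets.

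Genes of actin, matrix and filament proteins were also among the 15. Cotl1, an F-actin binding protein, had 82.8, 64.1, 70.8 and 67.1 at P15 and 28.6, 2.26, 32.4 and 22.8 later. Its log2 change was -2.26 ± 0.48 (adjusted p = 0.0048), with P18 1b far under the other later pools, and -1.35 without that pool (adjusted p = 0.027). Serpinh1, the collagen chaperone HSP47, went from 310.3, 234, 239.6 and 249 to 126, 40.7, 77.9 and 99.7, a log2 change of -1.69 ± 0.24 (adjusted p = 0.00030) and of -1.29 without P18 1b (adjusted p = 0.0011). Ltbp3, which binds latent TGF-beta in the matrix, had 70.3, 82.2, 72.7 and 56.3 and then 29.1, 33.0, 52.1 and 17.2 (log2 change -1.20 ± 0.23; -1.24 without P18 1b, adjusted p = 0.011). Krt12, a keratin known from the cornea, was measured at 74.6, 107, 112 and 108 and then at 50.9, 52.1, 25.5 and 38.4 (log2 change -1.30 ± 0.17, adjusted p = 0.00017; -1.31 without P18 1b, adjusted p = 0.00073). For Serpinh1 and Krt12 the call also held with the Gapdh covariate.

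Anp32a, a nuclear acidic phosphoprotein, fell 4.79-fold by 1 of its probe sets, 93372_at, from 223, 122, 193 and 187 to 49.4, 48.8, 33.5 and 23.1 (log2 change -2.26 ± 0.29, adjusted p = 0.00017). P18 1b did not stand out here, and the change was -2.25 without it (adjusted p = 0.0011). The other Anp32a probe set gave 523, 536, 695 and 606 and then 638, 641, 723 and 750.1, a difference of 0.23 that was not called. The endothelial adhesion molecule Pecam1 went from 65.1, 68.2, 89.4 and 75.4 to 41.6, 38.6, 12.1 and 46.6 (log2 change -1.26 ± 0.29, adjusted p = 0.0074; -1.23 without P18 1b, adjusted p = 0.035). The P20 pool 1a was its lowest pool. Angptl4, a secreted inhibitor of lipoprotein lipase, had 75.5, 97.5, 85.5 and 47.7 and then 22.9, 29.7, 33.7 and 35.9, and was not called without P18 1b (adjusted p = 0.086).

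Ap2a2, a subunit of the AP-2 clathrin adaptor, went from 982, 1032, 785 and 889 to 721, 122, 351 and 572 (log2 change -1.33 ± 0.30; -0.69 without P18 1b, adjusted p = 0.030). Arf3, a Golgi GTPase, went from 136, 154, 168 and 134 to 87.6, 30.8, 61.3 and 70.02 (log2 change -1.34 ± 0.32) and was not called without P18 1b (adjusted p = 0.089). Tbc1d10a, an activator of Rab GTP hydrolysis, had 131, 198, 106 and 101 and then 63.1, 96.6, 32.6 and 36.6, and its change of -1.31 ± 0.27 was -1.46 without P18 1b (adjusted p = 0.0083). Tomm40, the channel of the outer mitochondrial membrane translocase, had 239, 243, 209.7 and 266 and then 169.6, 63.2, 116 and 108 (log2 change -1.15 ± 0.21; -0.79 without P18 1b, adjusted p = 0.013). For Ap2a2, Arf3 and Tomm40 the value of P18 1b lay far under the other later pools, and for Tbc1d10a above them. Dctpp1, a dCTP pyrophosphatase, changed by -1.32 ± 0.27 (-0.76 without P18 1b, adjusted p = 0.010). Zfp358, a zinc finger protein, and Prr5, an mTORC2 component, changed by -1.81 and -1.41, and neither was called without P18 1b (adjusted p = 0.11 and 0.24). Of the 15 falling genes 11 were called without that pool and 6 with the Gapdh covariate (Actb, Anp32a, Serpinh1, Tbc1d10a, Krt12 and Pecam1). The 30 genes had 18 further probe sets, of which 14 had the same sign and 5 of these were also called. The 4 of opposite sign, none of them called, were those of Glul and Anp32a given above, 1 of Zfp292 (-0.15) and 1 of Angptl4 (0.32). Of the same sign but much smaller and not called were sets of Sbno1 (0.11 and 0.02), Arf3 (-0.34 and -0.29), Tbc1d10a (-0.19), Angptl4 (-0.61 and -0.43), Tcf25 (0.58) and Syncrip (0.26). The other 2 Wnk1 sets were called, at 1.89 and 0.28.

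For the gene lists, 1 probe set stood for each gene, the brightest on average, and over all 8251 genes 5.88% were called higher and 5.68% lower, with a median log2 change of -0.03. Both directions together made 11.6%. Without P18 1b the shares were 2.29% and 2.13% (4.42% together), and with the Gapdh covariate 0.545% and 0.776% (1.32% together). Astrocyte genes were called in 1 direction: 5 of 20 rose and none fell, 3 rose without P18 1b, and Glul and S100b rose with the Gapdh covariate. Beside Glul these were Slc4a4, Aqp4, S100b and Sparcl1. Aqp4, the water channel of astrocyte endfeet, had 725, 522, 689 and 483 and then 789, 1319.5, 1116 and 759 (log2 change 0.70 ± 0.15, adjusted p = 0.0056), and was not called without P18 1b (adjusted p = 0.053). Slc4a4, a sodium-bicarbonate cotransporter, had 90.1, 91.0, 140.1 and 81.0 and then 152, 274, 211 and 141 and was not called without that pool (adjusted p = 0.074). S100b, a calcium-binding protein of mature astrocytes, had 183, 133, 178 and 189 and then 264, 238, 268 and 263 (log2 change 0.61 ± 0.12; 0.65 without P18 1b, adjusted p = 0.0082), with the later pools close together. Sparcl1, a secreted protein that promotes synapse formation, rose by 0.51 (0.35 without P18 1b, adjusted p = 0.047). Gfap, the astrocyte filament, had 289.8, 354, 232 and 471 and then 332, 313, 311 and 223, overlapping groups that were not called. A second Aqp4 probe set, 102703_s_at, rose by 0.35, with overlapping ages, and was not called. The list's median change was 0.19, and 0.14 in wild type.

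Of 15 microglial genes 1 rose and 2 fell, and without P18 1b 1 rose and none fell. Ctss, a lysosomal protease of microglia, rose from 384, 418, 539 and 520.5 to 608, 801, 736 and 811 (log2 change 0.67 ± 0.11; 0.57 without P18 1b, adjusted p = 0.0082). The complement genes C1qa and C1qb were called lower, at -0.63 and -0.34, but not without P18 1b (adjusted p = 0.24 and 0.30). Csf1r, the receptor that microglia need to survive, stayed within 293 to 364 and was not called. Of 12 endothelial genes Pecam1 fell and Tek rose (0.57, not called without P18 1b), and of 17 mural cell and fibroblast genes the pericyte gene Rgs5 fell, by 0.53 on the log2 scale (-0.60 without P18 1b, adjusted p = 0.034). None of 7 choroid plexus and ependymal genes was called. Their summed intensity was 1474 to 3251 at P15 and 1257 to 2727 later, and Ttr, the defining marker of choroid plexus, ranged from 998 to 2697 over the 8 pools. None of 4 blood genes was called with all pools (1 rose without P18 1b), with sums of 1785 to 2732 and 1765 to 4675. Of 9 genes of thalamus and other forebrain regions only Drd2 was called, lower by 0.82 on the log2 scale and not without P18 1b (adjusted p = 0.052).

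Myelin genes were split among the P15 pools. With all pools, 1 of 14 rose (Evi2a, 0.87 ± 0.25, not called without P18 1b) and 1 fell (Plp2, -0.37, likewise lost), and the median change was 0.38, against 0.69 in wild type. Mobp, a protein of compact myelin, had 719, 756, 2173 and 1765 at P15 and 1650.3, 2115, 2011 and 2528 later, and Mog, on the outer face of the sheath, had 176, 175, 354 and 381 and then 386, 375, 445 and 367. In both genes the P15 pools 1c and 1d were low, while 2c and 2d lay at or near the later level. Mal, another myelin membrane protein, showed the same split with 214, 193, 751 and 883 and then 784, 467, 604 and 569. Over the list, the pools of number 2 exceeded those of number 1 at P15 by a median of 0.89 on the log2 scale in heterozygotes, whereas in wild-type P15 pools the same difference was -0.60. All heterozygous P18 and P20 pools carry the number 1, and what else the number stands for was not tested. With the P15 pools of number 1 alone, 7 of the 14 genes were called higher and 1 lower, with a median of 0.74. Of all probe sets 3.76% were called higher and 2.99% lower in that fit. It was chosen after the split had been seen. Of the 4 Mobp probe sets 1 had the opposite sign (-0.19), and none was called. Of the oligodendrocyte lineage genes Erbb3, the neuregulin receptor, split in the same way, with 57.0, 57.8, 138 and 132 and then 124, 243, 197 and 163 (a 2.01-fold rise, not called without P18 1b, with a second probe set at -0.46).

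Genes of immature neurons and axon growth had the opposite split: at P15 the heterozygous pools of number 2 differed from those of number 1 by a median of -0.37, against 0.15 in wild type. With all pools 4 of 29 fell and 2 rose, with a median of -0.24, and without P18 1b only Nnat and Stmn2 remained called. Nnat, a small membrane protein of young neurons, had 3255, 3489.7, 3376 and 1945 and then 2335, 1685, 1303 and 1406 (log2 change -0.84 ± 0.17, adjusted p = 0.0035; -0.73 without P18 1b). Stmn2, a microtubule regulator of growth cones, had 2376, 2574, 1826 and 1764 and then 1633, 1405, 1452 and 1418 (log2 change -0.52 ± 0.10, adjusted p = 0.0030; -0.46 without P18 1b). Stmn2 did not overlap between the ages, and the P15 pools 2c and 2d lay nearer the later pools than 1c and 1d did. Dcx, the microtubule protein of migrating neurons, had 202, 241, 137 and 121 and then 152, 209, 129.9 and 112, and Gap43, a growth cone protein, had 1414, 1161, 817 and 871 and then 1151, 841, 562 and 767. In both genes the P15 pools 1c and 1d were the highest of that age, and neither gene was called (-0.20 and -0.37). Dpysl3, a collapsin response mediator, Plxna3, a semaphorin receptor, and Epha5, an ephrin receptor, changed by -0.82, -0.55 and 0.64, and none of them was called without P18 1b. Sox11, a transcription factor of newborn neurons, went against the list, from 219, 199.98, 308 and 158 to 318, 651, 324 and 310.4 (log2 change 0.82 ± 0.21), and was not called without P18 1b (adjusted p = 0.12).

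**Figure D3:**
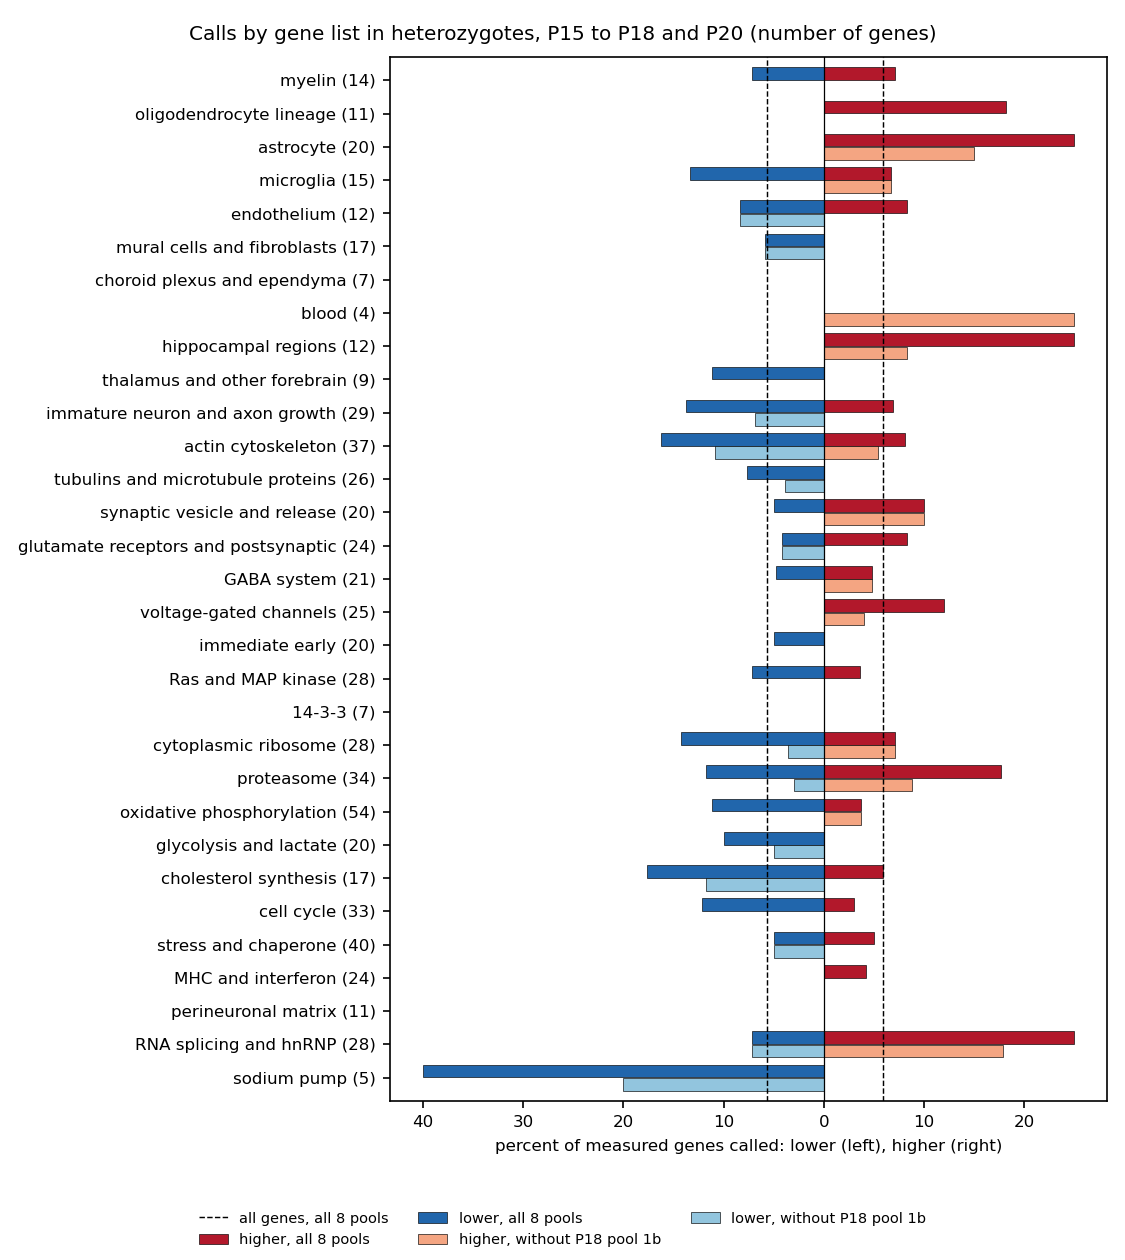
Share of measured genes called higher (right, red shades) or lower (left, blue shades) at P18 and P20 in each gene list, with the number of genes in brackets; each list has 2 bars per side, for all 8 heterozygous pools and without P18 pool 1b. Dashed lines mark the shares over all genes with all pools (5.88% higher, 5.68% lower); of the astrocyte genes 5 of 20 were called higher and none lower.

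Calb1, a calcium buffer of granule cells and CA1 neurons, went from 323, 290.0, 322 and 321 to 437, 441, 457 and 436 (log2 change 0.50 ± 0.08, adjusted p = 0.00056; 0.49 without P18 1b, adjusted p = 0.0035), with all later pools above all P15 pools and a narrow spread. It was also called with the Gapdh covariate (adjusted p = 0.017). Of 12 hippocampal region genes, Zbtb20 and Neurod6, transcription factors of hippocampal neurons, rose as well (0.62 and 0.79, neither called without P18 1b), and none fell. Snap25, a SNARE protein of the presynaptic membrane, had 2467, 2425, 2868 and 3111 and then 3481, 5190.0, 3973 and 4342 (log2 change 0.64 ± 0.13; 0.49 without P18 1b, adjusted p = 0.027). Napb, beta-SNAP, which helps take SNARE complexes apart, had 588, 493, 490.2 and 545 and then 791, 1007, 858 and 682 (log2 change 0.65 ± 0.11; 0.56 without P18 1b, adjusted p = 0.0084). Among 20 vesicle and release genes these rose and Stx1a fell (-0.63, not called without P18 1b).

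On the postsynaptic side Dlg4, the scaffold PSD-95, fell by its brightest probe set, from 712, 577, 673 and 643 to 527, 213, 249 and 348 (log2 change -1.05 ± 0.18, adjusted p = 0.0014; -0.72 without P18 1b, adjusted p = 0.0082). Gria3, an AMPA receptor subunit, rose by 0.94 and Ppp3r1, the regulatory subunit of calcineurin, by 0.42, and neither was called without P18 1b. These were the 3 calls among 24 genes. Camk2a, a kinase of the postsynaptic density, had a dim probe set (65.7, 29.1, 78.8 and 83.6, then 132, 69.7, 59.1 and 88.1) and was not called. Of 21 GABA system genes Gabra2 rose and Pvalb, the calcium buffer of fast-spiking interneurons, fell (-0.40, not called without P18 1b). Among 25 voltage-gated channel genes Cacna1c, an L-type calcium channel, rose from 143, 162, 187 and 145 to 214, 264, 242 and 212 (log2 change 0.55 ± 0.11; 0.47 without P18 1b, adjusted p = 0.023). The potassium channel Kcna1 and the sodium channel Scn8a rose by 0.96 and 0.64 with all pools alone, and none of the 25 fell.

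The Ras and MAP kinase list, the pathway on which neurofibromin acts, had 3 calls among 28 genes, a share near that of all genes. Map2k1 (MEK1) had 493, 429, 709 and 588 and then 779, 691, 806 and 688, called higher (0.44 ± 0.13, adjusted p = 0.030). Mapk9 (JNK2) had 175, 208, 135 and 190.1 and then 133, 55.1, 102 and 145, and the scaffold Ksr1 had 118, 137, 129.9 and 135 and then 87.8, 72.1, 70.1 and 117, both called lower (-0.78 and -0.61). No gene of the list was called without P18 1b (adjusted p = 0.057, 0.13 and 0.11 for these 3). The list's median change was 0.05, and 0.02 in wild type. Of 20 immediate early genes Fosb alone was called, lower by 0.58 on the log2 scale and just lost without P18 1b (adjusted p = 0.051).

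Of the genes of RNA splicing and hnRNP proteins 7 of 28 rose and 2 fell with all pools, and 5 rose and 2 fell without P18 1b. The median was 0.26 (0.21 without P18 1b and 0.02 in wild type). Sf3b1, the core of the U2 particle, went from 259, 214, 330.4 and 218 to 333, 494, 581.5 and 485 (log2 change 0.89 ± 0.18; 0.74 without P18 1b, adjusted p = 0.030). Ddx5, a helicase of the splicing machinery, went from 722, 684, 657 and 555 to 997, 1128, 854 and 842 (log2 change 0.54 ± 0.10; 0.50 without P18 1b, adjusted p = 0.017). In neither gene did the ages overlap. The splicing factors Srsf3 and Srsf5 rose by 0.60 and 0.56, and neither was called without P18 1b. Snrpb, a core protein of spliceosomal particles, was called lower (-0.52; -0.45 without P18 1b, adjusted p = 0.031) although the P20 pool 1b, at 2314, lay above every P15 pool. With the Gapdh covariate none of the 28 was called.

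Of 37 actin cytoskeleton genes 6 fell and 3 rose (4 fell and 2 rose without P18 1b), and the median change was 0.05. Besides Actb and Cotl1, Rhoa, the GTPase that controls actin contractility, went from 444, 397, 755 and 398 to 353, 222, 198 and 274 (log2 change -0.91 ± 0.18; -0.74 without P18 1b, adjusted p = 0.031). Its other sets, 101111_at and 101112_g_at, differed by -0.65 and -0.04 and were not called (adjusted p = 0.061 and 0.86). The Actb call in this list was that of set 101578_f_at, and the Actb control sets did not show a fall of that size. Fscn1, which bundles filaments in growth cones, changed by -0.53 (-0.45 without P18 1b, adjusted p = 0.045). Among 26 tubulin and microtubule genes Stmn2 and the axonal motor Kif5a (-0.92, not called without P18 1b) were called lower and none higher. The 40 stress and chaperone genes held 2 called higher and 2 lower. Dnajc5, cysteine string protein of synaptic vesicles, went from 229, 245, 249 and 208 to 129.5, 83.2, 115 and 168 (log2 change -0.95 ± 0.14, adjusted p = 0.00053; -0.79 without P18 1b, adjusted p = 0.0051) and was also called with the Gapdh covariate. Dnajb5, another DnaJ cochaperone, had 129.7, 129.6, 78.0 and 136 and then 96.7, 7.12, 12.2 and 12.9, so that P18 1a lay within the P15 range and the other later pools far under it (log2 change -2.67 ± 0.55; -1.73 without P18 1b, adjusted p = 0.031). The sodium pump regulator Fxyd7 had 675, 715, 428 and 564 and then 474, 155, 227 and 226 (log2 change -1.24 ± 0.23; -0.83 without P18 1b, adjusted p = 0.012), and the pump subunit Atp1b2 changed by -0.75 (not called without P18 1b).

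Of 34 proteasome genes 6 rose and 4 fell (3 and 1 without P18 1b), led by Psmd12 (0.78, not called without P18 1b), Psmd3 (-0.63, likewise) and Psma4 (0.60; 0.41 without P18 1b). Of 54 oxidative phosphorylation genes 2 rose and 6 fell (2 and 0 without P18 1b), and the complex I subunit Ndufa6 was one of those that rose, from 189, 166, 214 and 201 to 300.3, 283, 313 and 274. Of 28 cytoplasmic ribosomal protein genes 2 rose and 4 fell (2 and 1 without P18 1b), with Rps29 at -0.82 (not called without P18 1b) and Rplp0 at -0.42 (-0.30 without P18 1b). In glycolysis Hk1, the brain hexokinase, changed by -0.86 (not called without P18 1b), and Ldha, a lactate dehydrogenase subunit, went from 2431, 2178, 1912 and 1885 to 1621, 1405, 1473 and 1478 (log2 change -0.49 ± 0.08; -0.43 without P18 1b, adjusted p = 0.0082). In cholesterol synthesis 3 of 17 fell and 1 rose, and the falls of Sqle (-0.40) and Fdps (-0.38) were also called without P18 1b, unlike the changes of Sc5d (0.75) and Nsdhl (-0.47). Of 33 cell cycle genes 4 were called lower and 1 higher, led by Cdk1 (-1.47) and Ccnd2 (0.94), and none without P18 1b. None of 7 genes of 14-3-3 proteins and none of 11 perineuronal matrix genes was called with all pools, and of 24 MHC and interferon genes B2m alone was (0.65, not without P18 1b). Among the genes named from the lists, further probe sets of Pvalb (0.70), Epha5 (-0.22), Rps29 (0.18), Snrpb (0.48) and Nsdhl (0.08) had the opposite sign and were not called.

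In wild-type pools the same interval gave 58 called probe sets (0.467%), 38 higher (0.306%) and 20 lower (0.161%), with the same numbers of pools per age. Of the 1234 probe sets called in heterozygotes, 769 had the same sign in wild type and 10 were called there too. The difference between the genotypes' changes was itself tested, and 222 probe sets (1.79%) were called, 117 (0.942%) more positive in heterozygotes and 105 (0.845%) more negative. In 202 of these 222 the changes of the genotypes had opposite signs. Selection on a large difference favours opposite signs, so this count does not show that the genotypes moved in opposite directions. Without P18 1b 58 were called, 54 of them shared, and with the Gapdh covariate 6. Heterozygous late pools all carry the title number 1 and wild-type P20 pools the number 2. Number and genotype therefore cannot be told apart in part of this contrast. The title letter went from c and d to a and b in heterozygotes alone. Wild-type pools carry all these letters at P15 and over the later ages. The genotype difference therefore cannot be told apart from the letter either.

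Among called genes that passed the brightness rule, Wnk1 had the largest positive difference, 3.87 (adjusted p = 0.0036; 3.23 without P18 1b, adjusted p = 0.0058), with wild-type pools at 25.3 to 79.4 at P15 and at 11.5 to 15.5 later. Akap9 (3.55), Ago2 (3.05), Nexmif (2.39) and Dhx36 (1.98) also had opposite signs in the 2 genotypes, each called without P18 1b as well. The other Wnk1 sets differed by 2.63 (called) and 0.04 (not called). Ddx6, an RNA helicase of P-bodies, differed by 2.12 (2.01 without P18 1b, adjusted p = 0.024), with heterozygous pools at 44.9, 49.7, 64.7 and 61.4 and then 86.0, 115, 113 and 109. Of its other sets, 93964_s_at differed by 2.80 (adjusted p = 0.025) and 96731_at, the brightest, by -0.12 (adjusted p = 0.86), with a heterozygous change of 0.17 that was not called. In wild type the named Ddx6 set was at 47.2 to 158 and then at 27.4 to 49.9. The 15 leading rising genes were chosen for a large heterozygous rise, which is itself part of the difference. That choice favours calls for the difference among them, so their count does not show a rise particular to heterozygotes. Of all probe sets 1.79% were called for the difference. None of the 15 leading rising genes was called in wild type, 11 had the opposite sign there, and 10 were called for the difference (6 without P18 1b).

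By the same rule Actb had the largest negative difference, -3.36 (adjusted p = 0.00058; -2.76 without P18 1b, adjusted p = 6.9e-05), with wild-type pools at 354 to 728 at P15 and 628 to 725 later. Anp32a differed by -2.15 (-2.15 without P18 1b, adjusted p = 0.027), although the wild-type later pools spread from 38.4 to 304. Dnajb5 (-3.04), Arf3 (-2.12), Thrap3, a splicing-linked coactivator (-1.90), and Vamp2, the vesicle SNARE synaptobrevin (-1.53), were called with all pools and not without P18 1b. None of the further sets of Arf3, Thrap3 and Vamp2 was called for the difference (-0.51 and -0.13, -0.05, and -0.23). The Actb difference was that of set 95705_s_at. The brighter Actb control sets did not fall by that size in heterozygotes and were not part of this test. Vamp2 had 558, 349, 308 and 492 and then 326, 101, 207 and 292 in heterozygotes against 303 to 494 and then 475 to 661 in wild type. Of the astrocyte genes, Aqp4 differed by 1.29 (adjusted p = 0.0041; 1.11 without P18 1b, adjusted p = 0.0096) and Glul by 0.99 (adjusted p = 0.029; 0.93 without P18 1b, not called). Over the astrocyte list 3 of 20 genes were called for the difference, Aqp4 and Glul among them, against 1.79% of all probe sets. No myelin gene was called for the difference.

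**Figure D4:**
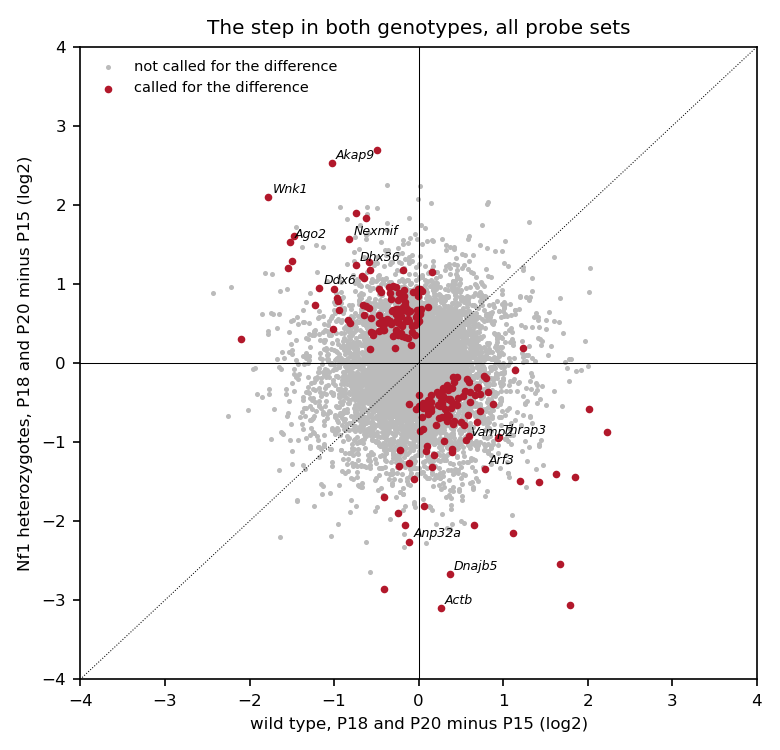
Log2 change from P15 to P18 and P20 in wild type (x axis) and in Nf1 heterozygotes (y axis) for 12422 probe sets; red points are the 222 called for the difference between the changes, and the dotted line marks equal change. Most red points lie at the upper left and lower right, where the changes had opposite signs, which selection on the difference favours.

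Within the later ages, P20 against P18 in heterozygotes gave no called probe set by limma (0 of 12422), while 1490 had an unadjusted p below 0.05. The 3 smallest p-values belonged to Evi5, Pabpc4 and Snrpb. Evi5, a regulator of Rab and the cell cycle, was 247 and 292 at P18 and 159 and 134 at P20. Pabpc4, a poly(A)-binding protein, was 257 and 320.0 at P18 and 174 and 108 at P20. Both were lower in both P20 pools, and neither was called. Set against P15 separately in the same fit, P18 gave 1368 called probe sets (11%; 5.25% higher and 5.76% lower) and P20 gave 155 (1.25%; 0.652% higher and 0.596% lower). Fitted without the P18 pools, P20 against P15 gave 350, and 208 probe sets were called there, with all pools and without P18 1b.

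The later ages of the series place some of these values. Glul reached 1325 to 1409 in the 3 heterozygous pools of P28 and P32, above all P18 and P20 pools, and its log2 mean in wild type was 8.77 ± 0.17 (SD, n = 4) at P18 and P20 and 10.61 ± 0.08 (SD, n = 4) at P28 and P32. Snap25 and Mobp lay within their P18 and P20 ranges at P28 and P32, at 3553 to 3614 and 2251 to 2459. Anp32a had 232 to 332, above its P15 level in every pool. For the Actb probe set the heterozygous pools of P28 and P32 had 173 to 248, and wild type had a log2 mean of 9.41 ± 0.09 (SD, n = 4) at P18 and P20 and of 6.92 ± 0.29 (SD, n = 4) at P28 and P32. These comparisons with later ages are descriptions and were not tested.

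**Figure D5:**
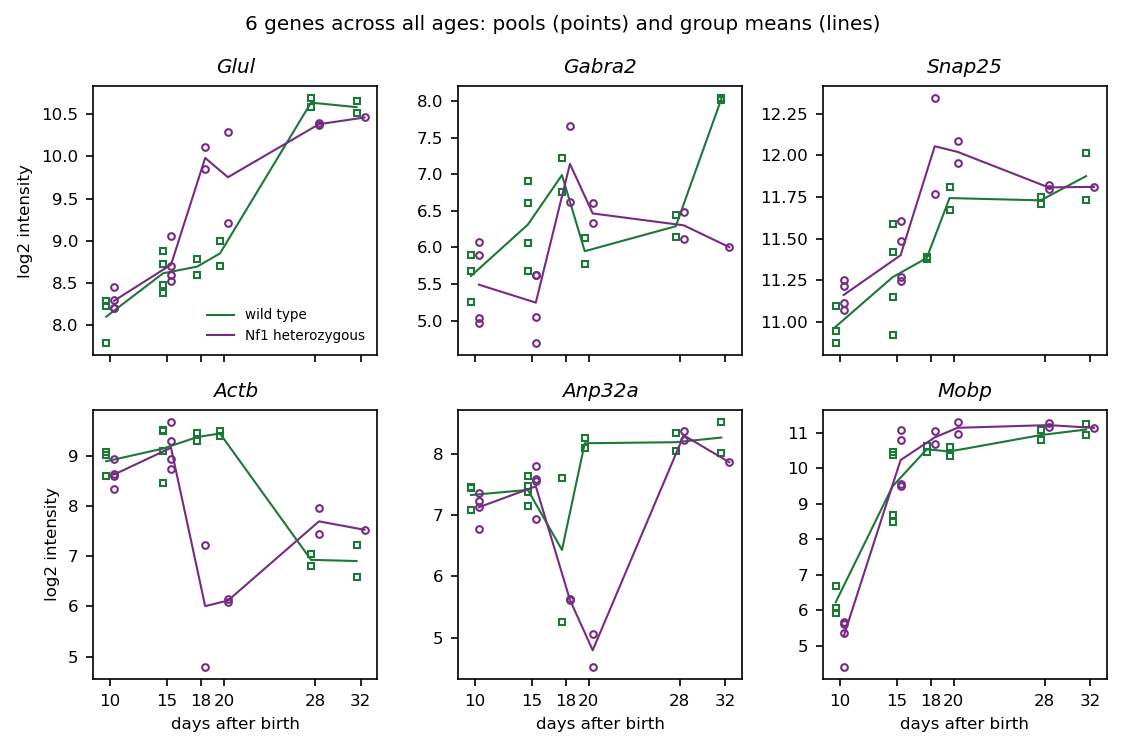
Log2 intensity of Glul, Gabra2, Snap25, Actb, Anp32a and Mobp against age in days, for wild-type (green squares) and Nf1 heterozygous (violet circles) pools; points are pools and lines join group means. In heterozygotes the plotted probe sets of Actb and Anp32a dip at P18 and P20, unlike the Actb control sets and the other Anp32a set. Glul is higher at those ages in heterozygotes than in wild type and high in both at P28 and P32. The P15 heterozygous pools of Mobp form a low and a high pair.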

How the data were processed

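Intensities were used as the authors deposited them, 1 value per probe set and array from 30 single-colour MG-U74Av2 arrays, each a pool of 2 pups; the software and the scaling behind them: not given in the sources used here. Of 12488 probe sets 66 are controls, and 12422 were tested. The platform annotation gave 1 gene symbol for 10833 probe sets, several for 396 and none for 1193; 10817 of the first matched the RefSeq gene table, used for names only.

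Values under 1 were set to 1 (6295 of all values) and log2 was taken. One model with a mean for each of 12 groups of genotype and age was fitted to all 30 arrays with limma 3.58.1 in R 4.3.3 (eBayes with trend), and p-values were adjusted by Benjamini-Hochberg over all 12422 probe sets, with 0.05 as threshold. Late means were the average of the P18 and P20 means. When a later pool was left out, the other pool of its age therefore weighed as much as both pools of the other age. Single values of arrays were compared with exact two-sided permutation tests. The scripts were tested on simulated data.

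The 30 leading genes were the 15 largest rises and falls among called, non-overlapping probe sets with 1 symbol and a mean log2 of at least 6 in the higher group. The genes named for the genotype difference were the 6 largest called in each direction by the same brightness rule, and those for P20 against P18 the 3 smallest p. In each list the defining markers and 2 to 4 called members with the largest change were named; further members were named after their values had been seen. The comparison, the members and the gene lists were chosen with earlier results of these data known. Alternatives covered normalization, the floor, dim probe sets, each pool left out, the samples fitted, array weights, the Gapdh ratio and blocks by title code; for the gene lists, the fits without P18 1b, without the P15 pools of number 2 and with the Gapdh ratio were chosen after seeing the data. The depth of an array is not a count, so the number of arrays limits the precision.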

Additional observations from a re-analysis of the deposited data

Results flagged for a closer look

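In a group of 4 pools, a single value far from the others is singled out by chance in about 5% of groups. At P15, Dnajb5 was 78.0 in the heterozygous pool 2c against 129.6 to 136 in the other 3, and Krt12 was 74.6 in pool 1c against 107 to 112.

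The change from P15 to P18 and P20 differed between heterozygotes and wild type, by the limma test of the difference itself, in 222 probe sets. Of the leading genes the log2 difference was more positive in heterozygotes for Wnk1 (3.87), Akap9 (3.55), Ago2 (3.05), Nexmif (2.39), Ddx6 (2.12), Dhx36 (1.98), Pcm1 (1.86), Sbno1 (1.75), Klf7 (1.72), Zfp292 (1.36), Aqp4 (1.29) and Glul (0.99). It was more negative for Actb (-3.36), Dnajb5 (-3.04), Anp32a (-2.15), Arf3 (-2.12), Thrap3 (-1.90), Vamp2 (-1.53), Tbc1d10a (-1.47), Serpinh1 (-1.29) and Krt12 (-1.07). Without the P18 pool 1b, Wnk1, Akap9, Ago2, Nexmif, Ddx6, Dhx36, Klf7, Aqp4, Actb and Anp32a were still called for the difference. For Ddx6, Wnk1, Arf3, Thrap3, Vamp2, Anp32a, Glul, Sbno1, Zfp292 and Tbc1d10a, at least 1 further probe set of the gene was not called for the difference. The Actb value was that of set 95705_s_at, and the Actb control sets were not part of the test.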

How the results depend on the processing

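The 1234 called probe sets of the heterozygous change became 350 with P20 alone and 150 with the Gapdh ratio as covariate. They became 50 with the title code as replicate block and 1 when only the heterozygous pools were fitted. Of the 1234, 483 were also called with array weights and 18 with the title code as block. With 1 pool left out there were 449 (P18 1b) to 2243 (P18 1a). For the genotype difference, 222 became 596 with P18 alone, 57 with P20 alone, 355 without the lowest 40% of probe sets, 28 with the compared groups only, 122 without the trend, 6 with the Gapdh ratio, 38 with the title code and 122 with the title number as replicate block, and 334 without the P15 pools of number 2. Leaving out 1 pool gave 58 (heterozygous P18 1b) to 1279 (P18 1a), with 138 for P15 1d, 74 for P15 2d, 98 for P20 1a, and in wild type 103 and 86 for P15 1a and 1b, 96 and 95 for P18 1c and 1d and 79 and 78 for P20 2a and 2b. For P20 against P18, 0 became 2 without the lowest 40% and 1 with the title code as block, and 0 to 1243 with 1 pool left out (1243 without P18 1a, 117 without P20 1a). Title codes were not taken as pairs: the deviations of P18 1a and P20 1a correlated at 0.094. Ago2 and Dhx36 reversed, both to -0.11, with the title code as block; of the 30 leading genes 1 kept its call (29 lost it) when only the heterozygous pools were fitted, 3 with the title code as block, 8 with the Gapdh ratio, 19 with P20 alone and 25 with array weights. List medians moved to 0.0072 for actin with all probe sets and to 0.11 for Ras and MAP kinase without P18 1b. Without the P15 pools of number 2, a choice made after the split at P15 was seen, they were -0.44 for immature neuron, -0.32 for thalamus, -0.38 for perineuronal matrix, -0.29 for cell cycle, -0.20 for sodium pump, -0.16 for cholesterol, 0.19 for stress, 0.028 for Ras and MAP kinase and -0.0083 for actin. With the Gapdh ratio they were 0.019 for microglia, -0.037 for thalamus, 0.065 for synaptic vesicle, 0.0076 for 14-3-3, -0.022 for stress, -0.10 for MHC and -0.22 for sodium pump. The cause was not tested. Dim probe sets near the floor, Nf1 among them, give no reliable fold.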
